A study of Mus musculus with 6 samples.

Results

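The genes described are 9 components and products of the interferon response, Stat2, Irf1, Irf3, Irf7, Irf9, Ifit1, Ifitm3, Isg15 and Bst2, measured on 1-colour Agilent mouse arrays. They were given by name, and a probe was counted to a gene where its transcript identifier is one of that gene's RefSeq transcripts, which gave 11 of 39429 gene probes. Of the 9 genes, 7 had a probe bright enough to test, out of 19664 genes tested in all. The 3 soma samples are gonadal somatic cells of male E13.5 embryos from genital ridges, on an MCH x C57BL6/J background with a transgene labelled Oct5<delta>PE-GFP, and the 3 ESC samples are VR15, a male embryonic stem cell line with a Vasa::RFP transgene. All 6 samples were untreated as far as the labels say, no sample was given interferon or a virus, and the culture medium of the line is not given in the sources used here. The 3 ESC samples come from 1 line, and the sources used here do not say how the somatic cells were separated from germ cells or whether embryos were pooled. The 3 samples of a group are called biological replicates in the series, and p-values measure the spread between these samples only.

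Interferons are secreted proteins that cells release on sensing viral nucleic acid. Type I interferons bind a receptor whose kinases phosphorylate STAT proteins, and a complex that holds STAT2 and IRF9 then binds the interferon-stimulated response element in the promoters of antiviral genes. Interferon gamma acts through a different element called GAS. Pluripotent stem cells are known to respond weakly to interferon while holding a subset of antiviral genes active, among them members of the IFITM family, which block virus entry at membranes.

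The promoters are shown because the interferon complex reads its letters there, and members that carry them went different ways in the arrays. RefSeq promoter windows (GRCm38.p6) of 300 bases, 250 before and 50 after the annotated start, were found for all 9 genes, with 11 windows in all. They were searched on both strands for the core of the response element, which is GAAA repeated after 2 bases of any kind (TTTC repeated on the other strand), and for TTCNNNGAA, the GAS letters, which read the same on both strands. The response element core was found in 5 of the 9 genes, Isg15, Ifit1, Bst2, Stat2 and Ifitm3, and in 3.99% of the 27025 genes of the table (3.44% of its 32851 windows). The GAS letters were found in 3 of the 9, Irf1, Bst2 and Ifitm3, and in 9.55% of those genes (8.3% of windows). Neither was found in the windows of Irf3, Irf7 and Irf9. The runs below give the 250 bases before the start, 5′ to 3′ along the gene's strand, with every matching letter in capitals.
Isg15 (chr4:156200819-156201068, minus strand): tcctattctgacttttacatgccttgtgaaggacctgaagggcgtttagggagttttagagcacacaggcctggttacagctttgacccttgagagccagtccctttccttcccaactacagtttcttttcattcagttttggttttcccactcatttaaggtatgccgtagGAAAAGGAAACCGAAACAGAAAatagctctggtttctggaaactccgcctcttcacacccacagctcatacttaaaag
Ifit1 (chr19:34640639-34640888, plus strand): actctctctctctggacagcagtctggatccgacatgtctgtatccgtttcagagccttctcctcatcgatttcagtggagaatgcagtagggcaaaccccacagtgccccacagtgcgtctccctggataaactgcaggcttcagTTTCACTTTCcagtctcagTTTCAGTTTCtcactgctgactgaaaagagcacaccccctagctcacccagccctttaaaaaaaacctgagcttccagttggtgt
Bst2 (chr8:71537473-71537722, minus strand): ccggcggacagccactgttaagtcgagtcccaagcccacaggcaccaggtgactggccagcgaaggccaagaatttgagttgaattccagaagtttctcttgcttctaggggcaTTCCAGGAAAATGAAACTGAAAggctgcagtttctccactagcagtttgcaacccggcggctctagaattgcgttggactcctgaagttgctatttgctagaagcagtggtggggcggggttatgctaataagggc
Stat2 (chr10:128270248-128270497, plus strand): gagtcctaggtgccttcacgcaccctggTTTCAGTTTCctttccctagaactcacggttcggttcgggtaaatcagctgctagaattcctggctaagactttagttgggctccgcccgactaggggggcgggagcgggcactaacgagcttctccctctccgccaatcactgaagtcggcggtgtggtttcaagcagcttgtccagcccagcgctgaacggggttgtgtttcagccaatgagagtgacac
Irf1 (chr11:53769764-53770013, plus strand): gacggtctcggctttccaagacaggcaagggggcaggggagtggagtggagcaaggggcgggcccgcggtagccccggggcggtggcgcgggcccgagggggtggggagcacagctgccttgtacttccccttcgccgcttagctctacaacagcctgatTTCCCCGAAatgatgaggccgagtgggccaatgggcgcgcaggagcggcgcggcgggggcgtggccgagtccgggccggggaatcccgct
In Isg15, 3 overlapping cores run from position -78 to -57 relative to the start. In Ifit1, 2 separate cores lie at positions -104 to -95 and -85 to -76, both on the other strand. In Bst2 a GAS match from -136 to -128 runs into 2 overlapping cores that end at -115. The core of Stat2 is the farthest from the start, at -222 to -213, and the capitals of Irf1 are a GAS match at -90 to -82. Ifitm3 had no match before its annotated start but held 2 cores and a GAS match just past it, from position 3 to 29, which lie in the 30 bases shown next.
Ifitm3 (chr7:141010714-141010743, minus strand): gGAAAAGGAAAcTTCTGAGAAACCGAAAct
A match describes letters and not a site in use, and no match says only that these letters are not in the window.

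Levels are given as the log2 signal relative to the array's own 75th percentile, so a level of 0 is a signal at that percentile and 1 unit is a 2-fold change. The 75th percentile was a signal of 1245 to 1388 on the soma arrays and 958.8 to 1016 on the ESC arrays. The scanner software marked 56.0% to 63.2% of an array's gene probes as well above background, and no gene spot was saturated. The label check held, since all 9 Sertoli markers, such as Sox9 and Amh, were higher in soma and all 10 pluripotency markers, such as Pou5f1 and Zfp42, were higher in ESC. Soma also carried other cells' RNA: 10 macrophage and leukocyte markers of 11 on the array were well above background on all 3 soma arrays, and 7 germ cell markers of 8 were. So were 7 erythroid markers of 8 and all 10 endothelial markers. Erythroid markers had summed levels (linear signal over the 75th percentile) of 814 to 862 in soma and 0.259 to 0.268 in ESC. Endothelial markers summed to 12.5 to 15.1 in soma and 19.0 to 19.6 in ESC. Each scan held arrays of 1 group only, and scan cannot be told apart from group. Over all genes the ESC minus soma difference had a median of 0.14, which became 0.02 under quantile normalization, 0.34 when arrays were scaled to their median and -0.08 when they were scaled to the spike-in RNA.

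All 7 members tested passed the threshold (limma, Benjamini-Hochberg adjusted p under 0.05 over all genes), where 85.0% of all genes did. Of them 5, Isg15, Ifitm3, Irf1, Irf9 and Stat2, were higher in ESC (46.6% of all genes were), and 2, Irf3 and Bst2, were higher in soma (38.3% of all genes were). At least 2-fold changes were seen for Isg15, Ifitm3 and Irf1 in the one direction and Irf3 in the other, against 24.2% and 23.3% of all genes. The groups did not overlap for any of the 7, as for 87.2% of all genes, and all 7 were well above background on all 6 arrays. A call and a gap between the groups were both common on these arrays, so the members are described by direction and size. Over the whole array, 42.5% passed toward ESC and 41.2% toward soma under quantile normalization, 52.0% and 33.2% with scaling to the array median, 39.2% and 43.3% with spike-in scaling, 47.7% and 36.6% with normexp background correction, and 29.5% and 24.9% with no filter on dim probes. In the members the count stayed at 5 and 2 in the first, the second and the normexp setting, and was 4 and 2 with spike-in scaling and 6 and 2 without the filter. Irf7 and Ifit1 could not be tested. In bulk RNA, fewer cells of a type and less RNA per cell cannot be told apart.

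**Figure D1:**
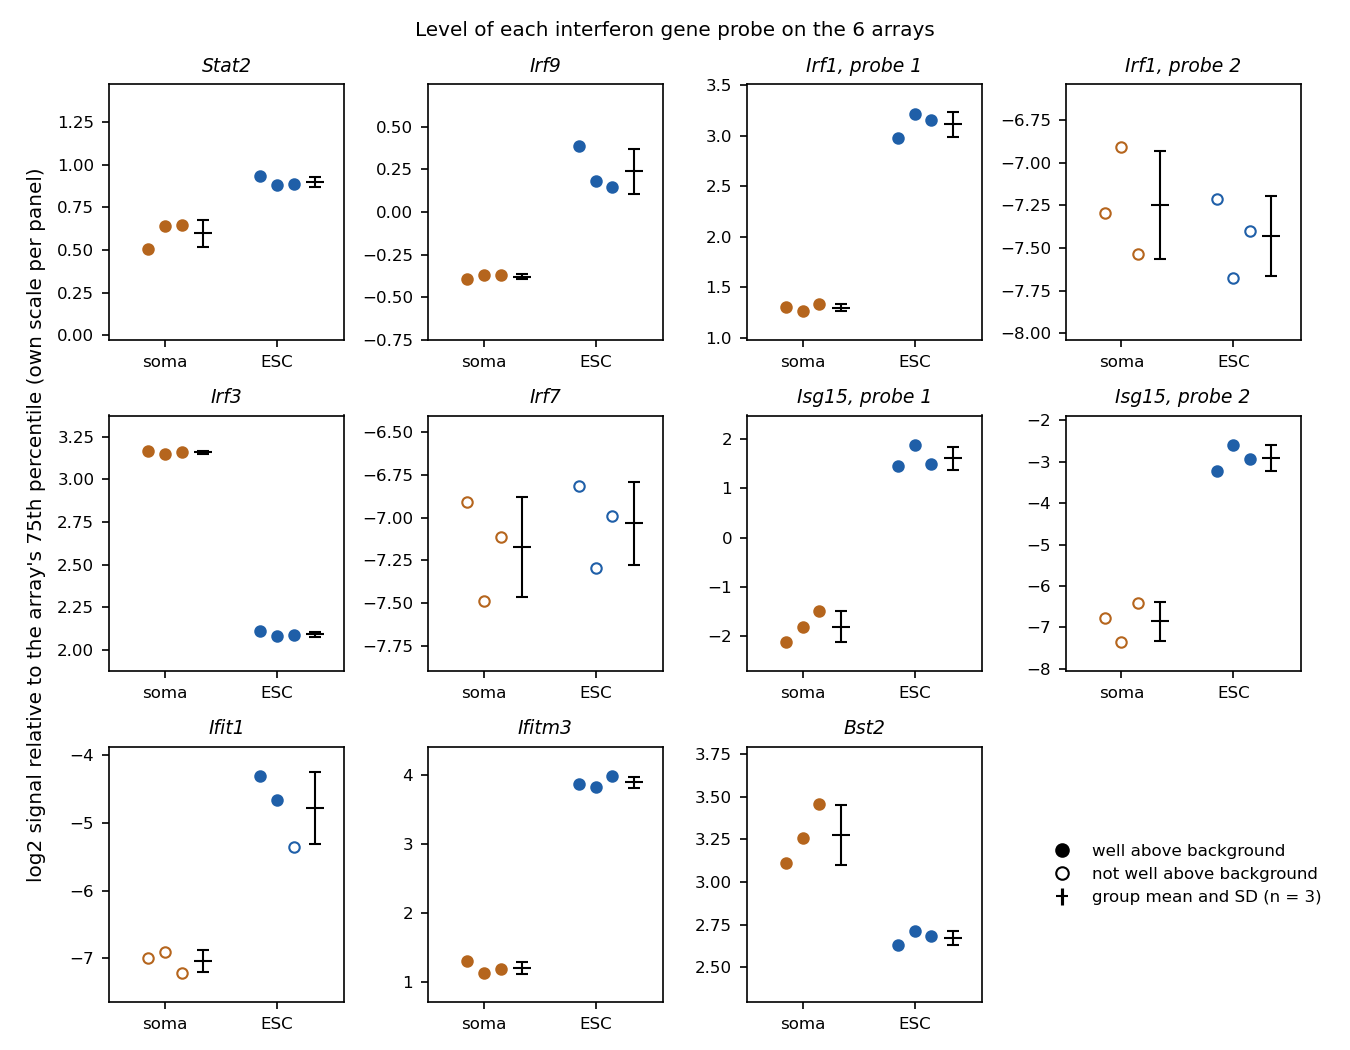
Level of each of the 11 probes of the 9 genes on the 3 soma arrays (brown) and 3 ESC arrays (blue), as log2 signal relative to the array's 75th percentile, with a scale of its own in each panel; open points were not well above background, and bars give the group mean and SD (n = 3). Isg15, Ifitm3 and Irf1 stand far higher in ESC, Irf3 and Bst2 lower, while Irf7 and the second Irf1 probe lie in the background on all 6 arrays.

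STAT2 and IRF9 are the parts of the interferon complex that give it its choice of DNA. Stat2 (probe A_55_P2059606) stood at 0.51, 0.64 and 0.65 in soma 1 to 3 and at 0.93, 0.88 and 0.88 in ESC 1 to 3. It was the smallest difference among the members, with the groups apart but close, at 0.30 ± 0.058 higher in ESC (SE, n = 3 per group), or 1.23-fold (adjusted p 0.00333). Scaled to the spike-in RNA the difference was 0.08 with an adjusted p of 0.401, so its call rests on the scaling. Irf9 (A_55_P2114938) stood at -0.39, -0.37 and -0.37 in soma 1 to 3, a spread of only 0.013 (SD, n = 3), and at 0.39, 0.18 and 0.15 in ESC 1 to 3. ESC 1 was the highest of the ESC arrays and every ESC array lay above every soma array. The difference was 0.62 ± 0.076 (SE, n = 3 per group), or 1.53-fold higher in ESC (adjusted p 0.000401), and 0.39 under spike-in scaling (adjusted p 0.00454).

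The interferon regulatory factors (IRF) are transcription factors with their own DNA-binding domain, and the members among them went in opposite directions. IRF1 is induced by interferon gamma and drives genes such as those of antigen presentation. Irf1 (A_55_P2000062) stood at 1.30, 1.26 and 1.33 in soma 1 to 3 and at 2.97, 3.22 and 3.16 in ESC 1 to 3. The soma arrays lay close together and well under all ESC arrays, for a difference of 1.82 ± 0.075 (SE, n = 3 per group), or 3.53-fold higher in ESC (adjusted p 3.06e-06). Its other probe (A_55_P2000067), matched to another transcript of the gene, was not well above background on any of the 6 arrays.

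IRF3 is the factor that is phosphorylated when a cell senses viral nucleic acid and that starts interferon transcription. Irf3 (A_55_P2083939) had the tightest replicates of the members, at 3.17, 3.15 and 3.16 in soma 1 to 3 and 2.11, 2.08 and 2.09 in ESC 1 to 3. It was lower in ESC by 2.09-fold, a log2 difference of -1.07 ± 0.043 (SE, n = 3 per group, adjusted p 2.69e-06). IRF7, which amplifies the interferon response once induced, was not seen. Irf7 (A_51_P421876) stood between -7.49 and -6.91 on the soma arrays and between -7.29 and -6.82 on the ESC arrays, and none of the 6 was well above background. With both groups in the background no fold is given, and the array can bound Irf7 only by the signal of the dimmest probes it could mark, which was 23.39 to 41.6 over the 6 arrays.

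Of the proteins that act on viruses, the ubiquitin-like modifier ISG15 showed the largest change. Isg15 (A_55_P2103698) stood at -2.11, -1.82 and -1.48 in soma 1 to 3 and at 1.44, 1.88 and 1.49 in ESC 1 to 3. It varied more within groups than the other members tested, with an SD of 0.31 in soma and 0.24 in ESC (n = 3 each), yet the lowest ESC array was far above the highest soma array. The difference was 3.41 ± 0.19 (SE, n = 3 per group), or 10.6-fold higher in ESC (adjusted p 1.12e-05). A second probe (A_66_P128537) was well above background on all 3 ESC arrays, at -3.23, -2.60 and -2.94, and on no soma array, and gave at least 5.10-fold. For such a bound the dim group's arrays were each given the probe's own value or, where that was lower, the dimmest signal that the scanner software still marked as above background, and their mean was compared with the bright group's mean. Against soma 3 alone, the array with the highest Isg15 in soma and the one that shares a slide with the ESC arrays, the difference was 3.09.

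IFIT1 binds viral RNA that lacks the host's cap methylation. Ifit1 (A_51_P327751) was not well above background on any soma array, where it stood at -7.00, -6.91 and -7.22, and was above it on 2 of 3 ESC arrays, at -4.30 and -4.66, with -5.36 on ESC 3. It missed the filter by that 1 array and was not tested with the others, and the bound was at least 1.41-fold higher in ESC. Without the filter its difference was 2.27 ± 0.29 (SE, n = 3 per group, adjusted p 0.00104), a value that depends on background signal in soma.

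IFITM3 sits in endosomal membranes and blocks the fusion of viruses, and is also known as fragilis, a gene of early germ cells. Ifitm3 (A_51_P128876) was printed in 10 spots on each array, and it stood at 1.31, 1.14 and 1.19 in soma 1 to 3 and at 3.87, 3.83 and 3.98 in ESC 1 to 3. The SD over the 10 spots was 0.040 to 0.089 on an array, which is spread within an array and no replicate of a sample. Both groups were tight and far apart, with a difference of 2.68 ± 0.070 (SE, n = 3 per group), or 6.42-fold higher in ESC (adjusted p 6.72e-07). Its relatives, which are near it in sequence, moved the same way: Ifitm1 was 7.18-fold higher in ESC (2.84 ± 0.12, adjusted p 3.56e-06) and Ifitm2 2.03-fold higher (1.02 ± 0.095, adjusted p 0.000105, and 0.50 under quantile normalization; SE, n = 3 per group for both). Probe sequences were not used here, so signal shared among the 3 genes was not checked.

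BST2, also called tetherin, holds budding virus particles at the cell surface. Bst2 (A_51_P169693) stood at 3.11, 3.26 and 3.46 in soma 1 to 3 and at 2.63, 2.71 and 2.68 in ESC 1 to 3. It was lower in ESC in every pair of arrays, by 1.52-fold (-0.60 ± 0.096 on the log2 scale, SE, n = 3 per group, adjusted p 0.00135), and it stood at -0.96 under quantile normalization. Its promoter holds response element cores, as do those of Isg15 and Ifit1. Among soma arrays Bst2 and Isg15 were both highest on soma 3 and lowest on soma 1. Germ cell markers deviated from their mean over soma by a median of -0.53 on soma 1, 0.03 on soma 2 and 0.49 on soma 3, and pluripotency markers by -0.32, 0.06 and 0.18 in that order, and their part in these levels was not tested. Macrophage markers, with summed levels of 8.57 to 9.20 in soma and 0.839 to 1.14 in ESC (linear signal over the 75th percentile, 11 genes), also stood higher in soma. Of these Ptprc, Cx3cr1, C1qc, Adgre1 and Lyz2 were not well above background on any ESC array, and their part in the soma level of Bst2 was not tested.

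**Figure D2:**
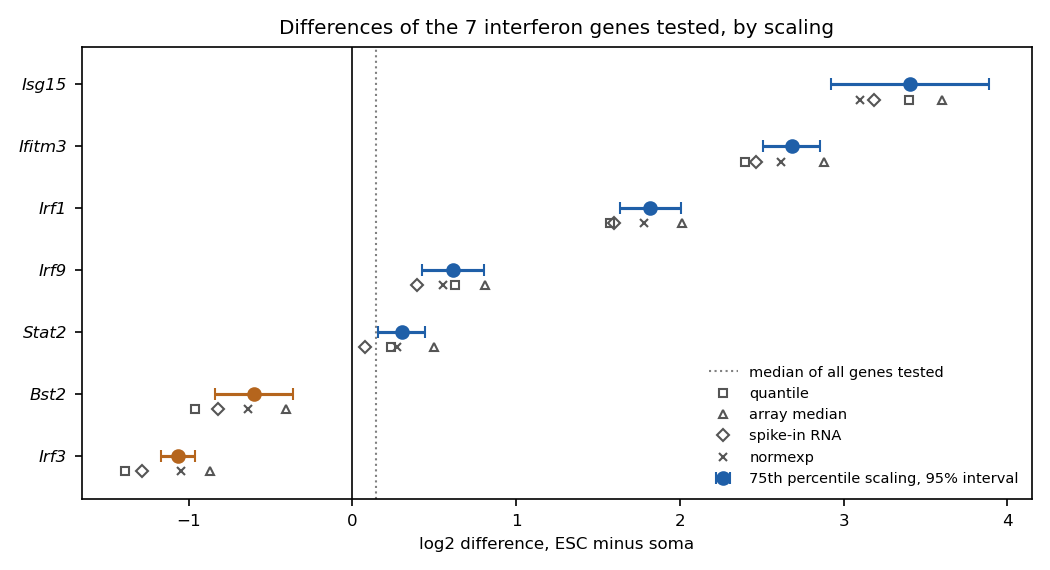
Log2 difference, ESC minus soma, of the 7 members tested, with 95% intervals from the limma fit (circles and bars), and the same difference under 4 other settings (3 scalings and normexp background correction, small symbols below each). Isg15 at 3.41 and Ifitm3 at 2.68 keep their distance from 0 under each setting shown, while Stat2 falls to 0.08 under spike-in scaling.

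For each member the gene of the whole array with the most similar pattern was taken as the one with the smallest root mean square distance over the 6 arrays, after each gene was centred on its mean. These were Zfp367 for Stat2 (distance 0.017), Gm14124 for Irf9 (0.018), Por for Irf3 (0.014), Abcc1 for Irf1 (0.043), Ezr for Ifitm3 (0.022), Ndrg2 for Bst2 (0.027) and Tcfl5 for Isg15 (0.11). How particular the patterns were differed, since 874 genes lay within 0.1 of Stat2, 39 within 0.1 of Ifitm3 and 0 within 0.1 of Isg15. None of these 7 is an interferon pathway gene of the lists used here.

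The genes upstream of the members stood mostly higher in soma. Of 17 upstream genes on the array, receptors, ligands and kinases among them, 9 were tested, with 7 passing toward soma and 2 toward ESC (median difference -1.83; 0.14 over all genes). Ifnar1 and Ifnar2 encode the chains of the type I interferon receptor. Ifnar1 stood at 2.20, 2.21 and 2.15 in soma 1 to 3 and at -1.03, -1.10 and -1.12 in ESC 1 to 3, 9.64-fold lower in ESC (-3.27 ± 0.050, SE, n = 3 per group, adjusted p 1.87e-07). Its 2 other probes gave differences of -1.14 and -1.52, the last with 1 ESC array well above background, so the direction was shared and the size was not. Ifnar2 was 2.14-fold lower (-1.10 ± 0.062), the interferon gamma receptor genes Ifngr1 and Ifngr2 were 3.51-fold and 6.99-fold lower, and the kinase genes Jak1 and Jak2 4.37-fold and 3.55-fold lower. Il10rb, a chain shared by the interferon lambda receptor, was 18.7-fold lower, though only 1 ESC array was well above background for it, and its difference was -2.65 under normexp background correction. Ifnlr1, the other chain of that receptor, was 10.1-fold higher in ESC (3.33 ± 0.14, SE, n = 3 per group, adjusted p 3.08e-06), and the kinase gene Tyk2 1.48-fold higher (0.34 on the log2 scale under spike-in scaling). The 7 interferon genes on the list, among them Ifnb1 and Ifng, missed the filter.

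The other IRF genes also stood higher in soma. All 4 tested of 5 passed in that direction (median -3.44, or -2.85 with genes set at their bound), and 3 passed under quantile normalization and under array median scaling. Irf8, a factor of macrophages and other blood cells, was at 0.66, 0.73 and 0.61 in soma 1 to 3 and -2.88, -2.83 and -2.75 in ESC 1 to 3, a difference of -3.49 ± 0.060 (SE, n = 3 per group, adjusted p 2.26e-07). Irf2, which competes with IRF1 for its sites, and Irf5 were not well above background on any ESC array and were at least 8.41-fold and at least 6.21-fold lower there. The macrophage markers given above were also higher in soma than in ESC, and their part in the levels of these 3 genes was not tested.

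Sensors of viral nucleic acid and their adaptors went both ways. Of 18 genes tested, 6 passed as higher in ESC, 7 passed as higher in soma and 5 missed the threshold, or 33.3% and 38.9% in the 2 directions where all genes had 46.6% and 38.3% (median -0.16, and 0.04 when arrays were scaled to their median). The DNA sensing pair Cgas, the enzyme that makes the cyclic dinucleotide, and Sting1, its receptor, stood lower in ESC. Sting1 was at 1.21, 1.27 and 1.06 in soma 1 to 3 and -2.57, -2.90 and -2.74 in ESC 1 to 3, 15.1-fold lower (-3.91 ± 0.10, SE, n = 3 per group, adjusted p 6.8e-07), and Cgas was 6.31-fold lower (-2.66 ± 0.11). Zbp1, which binds Z-form nucleic acid, was 8.94-fold higher in ESC (3.16 ± 0.15), Aim2, a DNA sensor of the inflammasome, 6.56-fold higher (2.71 ± 0.11), and the RNA sensor gene Ddx58, which encodes RIG-I, 4.39-fold higher (2.14 ± 0.18; SE, n = 3 per group for each). Mavs, the adaptor below RIG-I, passed at -0.17 (adjusted p 0.0353) but stood at 0.03 when arrays were scaled to their median (adjusted p 0.731).

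Among 58 other interferon-induced genes, 48 were tested, of which 31 (64.6%) passed as higher in ESC, 14 (29.2%) passed as higher in soma and 3 missed the threshold. Their median difference stood at 1.78, or 1.47 with genes set at their bound, against 0.14 over all genes, and it was 1.48 under quantile normalization and 1.21 under normexp. Of the 48 genes, 28 (58.3%) passed at 2-fold or more higher in ESC, where 24.2% of all genes did. Oas1a, an enzyme that makes the 2-5A messenger from ATP when it meets double-stranded RNA, stood at -4.15, -3.90 and -3.72 in soma 1 to 3 and at 2.44, 2.09 and 2.12 in ESC 1 to 3. It was 70.5-fold higher in ESC (6.14 ± 0.14, SE, n = 3 per group, adjusted p 4.94e-07), and its second probe gave at least 28.8-fold. Xaf1, a gene of cell death induced by interferon, was at least 44.9-fold higher in ESC on its main probe, which was not well above background on any soma array, and 2.57 on the log2 scale on its other probe.

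The IFIT relatives of Ifit1 were split. Ifit2 was at -2.90, -2.75 and -2.82 in soma 1 to 3 and -3.87, -3.82 and -4.10 in ESC 1 to 3, 2.15-fold lower in ESC (-1.10 ± 0.092, SE, n = 3 per group, adjusted p 6.18e-05; -0.58 under normexp). Ifit3 was not well above background on any soma array and was at least 2.03-fold higher in ESC.

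Genes that attach ISG15 to other proteins and remove it went in different directions. Uba7, the activating enzyme of the conjugation, stood at 0.98, 1.02 and 1.03 in soma 1 to 3 and at -4.04, -3.33 and -3.38 in ESC 1 to 3, 24.2-fold lower in ESC (-4.60 ± 0.20, SE, n = 3 per group, adjusted p 3.4e-06). Ube2l6, the conjugating enzyme, stood 0.13 apart with an SE of 0.077 (n = 3 per group, adjusted p 0.153; 0.33 and 0.0101 with array median scaling). On the probe tested Herc6, a ligase, was at least 1.81-fold lower in ESC. Usp18, the protease that removes ISG15 and that also blocks the type I receptor, was not well above background in soma and was at least 4.72-fold higher in ESC. Usp18 is also on the list of pathway inhibitors, where 7 of 14 tested (50%) passed as higher in ESC, 6 (42.9%) as higher in soma and 1 missed the threshold, shares near those of all genes (46.6% and 38.3%). Among the 7 is Ptpn2, at 0.87 (log2) on the probe tested and 0.70 on another. A further Ptpn2 probe passed in the other direction, at -0.76. Of the same list Pias2, a SUMO ligase that restrains STAT proteins, was 6.18-fold higher in ESC (2.63 ± 0.074, SE, n = 3 per group). Irf2bp2, a corepressor that binds IRF2, was 2.21-fold lower (-1.14 ± 0.067, SE, n = 3 per group).

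**Figure D3:**
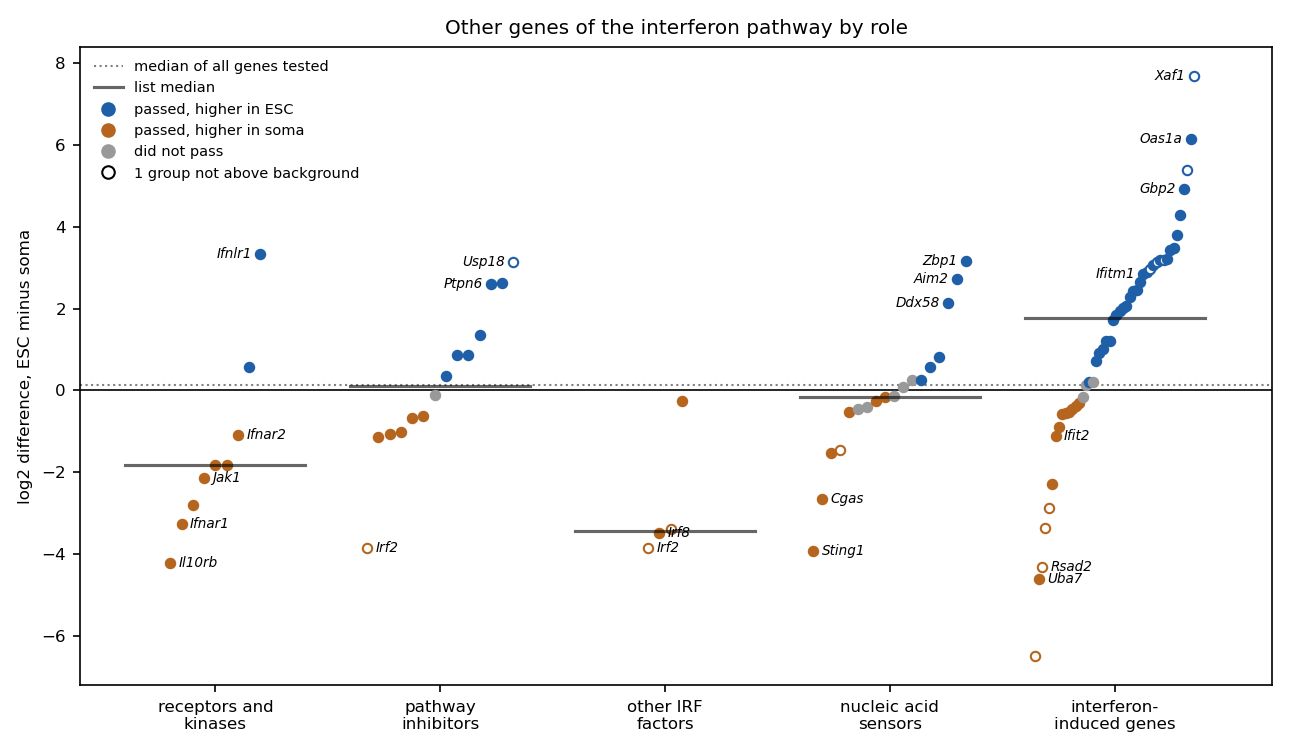
Log2 difference, ESC minus soma, of each other interferon pathway gene tested, 1 point per gene, in 5 lists by role; the thick line is the list's median and the dotted line the median of all genes, and open points have 1 group not well above background. Receptors and kinases lie mostly below 0 (7 of 9 passed higher in soma) and interferon-induced genes mostly above it (31 of 48 passed higher in ESC).

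Promoter letters of the interferon-induced list were counted as a description. Of 26 genes higher in ESC that have a RefSeq window 11 held the response element core, and of 12 higher in soma 3 did. Both shares lie above the 3.99% of all genes in the table, and the difference between them was not tested.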

How the data were processed

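Per the labels, total RNA was labelled with Cy3 for 1-colour arrays, 1 per sample, with spike-in RNA. The processed signal comes from Feature Extraction 10.7.3.1, per the file headers, and is an intensity corrected for background within the array and not scaled between arrays. The series matrix the authors deposited holds log2 values whose scale is not stated. They equal the log2 processed signal less the array's 75th percentile and each probe's median over 6 arrays, within 0.01 for at least 99.97% of probes. Its columns had medians of 0.0549, -0.251 and -0.0654 (soma, replicates in order) and of 0.161, -0.0878 and 0.0634 (ESC), and it served as an alternative.

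Log2 processed signals were averaged over a probe's spots without outlier marks and scaled by the array's 75th percentile. A probe was kept when well above background on all arrays of at least 1 group (24150 of 39429), and a gene was read from its brightest kept probe. Symbols came from a RefSeq table of GRCm38.p6 through transcript identifiers (66.1% of probes); the array grid was built on another assembly, so coordinates are given only for the RefSeq promoter windows. ESC was set against soma by limma 3.58.1 (R 4.3.3), two-sided, over 19664 genes. On values simulated for that comparison, 200 of the 19664 genes were changed. There 0% of changes of 0.25, 36% of changes of 0.5, 82% of 1 and 90% of 2 (log2) were recovered. On the real arrays 85.0% of genes passed, which makes the adjusted threshold easier to reach than in the simulation. These shares therefore do not give the recovery for the calls reported here. Alternatives covered scaling, normexp on the median signal (offset 50), filters, probe summary, slide, scan and replicate number as blocks, and each array left out; the scan was added after seeing the data. Precision is limited by there being 3 arrays per group.

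The members and lists were chosen with earlier results of these data known. Genes of the 5 lists were named when among the 2 largest differences in each direction of a list, or as Ifnar1, Ifnar2, Ifit2, Ifit3, Ifitm1 and Ifitm2. Other genes of the lists were named after their values were seen, and some are counted but not reported here by name.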

Additional observations from a re-analysis of the deposited data

How the results depend on the processing

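Over 20 alternatives Isg15 ranged from 3.09 to 3.67, Ifitm3 from 2.40 to 2.88, Irf1 from 1.58 to 2.01, Irf9 from 0.39 to 0.81, Irf3 from -1.39 to -0.87 and Bst2 from -0.96 to -0.41, and all of these passed. Stat2 ranged from 0.08 to 0.50 and missed the threshold only under spike-in scaling (adjusted p 0.401; range over the alternatives 0.000411 to 0.401). With at most 1 array left out, 5 members were higher in ESC and 2 in soma. Of the other IRF genes 2 passed when the filter asked for signal above background on all 6 arrays, since Irf2 and Irf5 then drop out, and 1 was higher in ESC when a gene's probes were averaged. Replicate numbers were not stated to pair samples, and same-numbered arrays deviated together with r of -0.0473 to 0.0672 across genes. With the replicate block the calls numbered 9028 toward ESC and 7445 toward soma, against 9170 and 7535 without it, and the members' calls did not change. Scaling set how large the small differences were, and low signal limits Irf7 and Ifit1.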

Other observations

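Interferon-inducible GTPases, which attack the vacuoles of intracellular parasites and bacteria, were measured among the interferon-induced genes. Gbp2 stood at -3.68, -3.75 and -3.50 in soma 1 to 3 and at 0.61, 1.73 and 1.49 in ESC 1 to 3, 30.3-fold higher in ESC (limma, 4.92 ± 0.29, SE, n = 3 per group, adjusted p 1.32e-05), and ESC 1 was the lowest of the ESC arrays. Gbp3 was 11.1-fold higher, Igtp 5.41-fold, Irgm1 4.20-fold and Irgm2 3.84-fold. Gbp7 did not pass, at -0.15 ± 0.31 (SE, n = 3 per group, adjusted p 0.658), and Ifi47 was 1.85-fold lower in ESC. The immunoproteasome genes Psmb8 and Psmb9, whose subunits replace those of the standard proteasome, were 19.4-fold and 10.8-fold higher in ESC. On ESC 1 to 3 Psmb8 stood at -0.62, 0.54 and 0.18, so ESC 1 was the lowest there too.

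Genes for enzymes that act on viral RNA or its precursors were also measured. Rsad2, which encodes viperin, and Cmpk2, a nucleotide kinase gene, were not well above background on any ESC array on the probes tested, and were at least 4.54-fold and at least 4.26-fold lower in ESC. The other Cmpk2 probe did not pass, at -1.14 (adjusted p 0.158). Adar, which edits double-stranded RNA, was 4.88-fold higher in ESC, but its other probe gave 0.77 on the log2 scale. The kinase gene Eif2ak2, which encodes PKR, was 1.23-fold lower in ESC (adjusted p 0.0106), but it missed the threshold under quantile normalization (adjusted p 0.0709) and array median scaling (adjusted p 0.212).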
